A study of Homo sapiens with 12 samples.

Results

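The imprinted genes MEST, PHLDA2, PEG10, GRB10, CDKN1C, PLAGL1 and IGF2R were followed after knock-down of the transcription factors ETV6 and NFKB1 in U251 cells, a widely used line from a human glioblastoma. Members were all probe sets that the platform's probe table assigns to a single gene with one of these 7 names. That gave 12 of the 17313 single-gene probe sets and 6 of 10346 genes: MEST and PHLDA2 with 1 probe set each, PEG10 and IGF2R with 2, GRB10 and PLAGL1 with 3. CDKN1C had no single-gene probe set among the values used and is not analysed here. MEST and PHLDA2 were chosen by their falls in these arrays, so their values are given as a description with no test, and their falls support nothing beyond themselves. The rule names no measured value for the other members.

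Cells were transiently transfected with small interfering RNA (siRNA) in 4 groups of 3 samples: a control siRNA without a human target, an siRNA pool against ETV6, an siRNA pool against NFKB1, and both pools together, here called double siRNA. Each siRNA was given at 50 nM. The labels do not say whether the total amount was evened out in the double group, nor how long after transfection the cells were taken, so the second knock-down and a larger amount of siRNA cannot be told apart. All groups are 1 cell line, and total RNA of each sample was hybridized to 1 Affymetrix array. Nothing in the labels says that the samples of a group were separate cultures, so p-values measure only the spread between these samples, which may be technical.

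A gene is imprinted when it is read mainly from a single parental allele, which is fixed by DNA methylation laid down in the germ line at a control region. Many imprinted genes set the growth of the fetus and placenta: the paternally read ones tend to promote it, and the maternally read ones tend to hold it back. MEST (also PEG1) encodes an endoplasmic reticulum protein of the alpha/beta hydrolase fold and is read from the paternal allele. PHLDA2 encodes a small pleckstrin-homology protein that limits placental growth and is read from the maternal allele. ETV6 is an ETS factor that represses transcription through sites with a GGAA core, and NFKB1 encodes the precursor of the p50 subunit of NF-kB.

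To show the DNA upstream of the members that moved with ETV6 siRNA, 4 windows of 250 bases that end just before a listed transcript start are printed 5′ to 3′ on the gene's strand, from RefSeq on the build GRCh38.p14. Capitals mark GGAA, the core of ETS sites, on either strand (GGAA or TTCC). The first and second belong to separate MEST starts on the plus strand. The third belongs to PLAGL1 and the fourth to GRB10, both on the minus strand. Each is 1 of 5 windows listed for its gene. Of those with no other listed start of the gene inside, the window with the most CpG was taken, and for MEST also the first by position.
MEST chr7:130485925-130486174: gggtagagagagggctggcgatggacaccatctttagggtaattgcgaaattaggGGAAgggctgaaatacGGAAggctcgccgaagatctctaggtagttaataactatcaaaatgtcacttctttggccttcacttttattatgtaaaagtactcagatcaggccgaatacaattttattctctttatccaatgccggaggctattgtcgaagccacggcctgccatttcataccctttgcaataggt
MEST chr7:130491808-130492057: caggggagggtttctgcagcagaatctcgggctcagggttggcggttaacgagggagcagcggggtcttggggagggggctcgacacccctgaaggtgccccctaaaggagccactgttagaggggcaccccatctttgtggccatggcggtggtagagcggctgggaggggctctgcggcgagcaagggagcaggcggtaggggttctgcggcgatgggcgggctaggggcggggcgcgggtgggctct
PLAGL1 chr6:144008260-144008509: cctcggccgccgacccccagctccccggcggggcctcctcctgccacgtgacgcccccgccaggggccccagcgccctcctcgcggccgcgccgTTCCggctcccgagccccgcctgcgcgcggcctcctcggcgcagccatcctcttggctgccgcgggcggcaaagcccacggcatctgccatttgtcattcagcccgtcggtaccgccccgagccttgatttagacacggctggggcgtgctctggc
GRB10 chr7:50792875-50793124: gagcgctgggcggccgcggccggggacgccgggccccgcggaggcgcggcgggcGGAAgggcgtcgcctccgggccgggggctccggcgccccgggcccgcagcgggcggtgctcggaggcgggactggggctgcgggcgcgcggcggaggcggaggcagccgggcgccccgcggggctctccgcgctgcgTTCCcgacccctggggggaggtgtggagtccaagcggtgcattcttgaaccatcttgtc

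The first MEST window held 2 GGAA cores and 9 CpG dinucleotides, and the second held 0 cores and 16 CpG. The PLAGL1 window held 1 core and 32 CpG (the 91.9 percentile of all windows for CpG), and the GRB10 window held 2 cores and 40 CpG (the 98.3 percentile). The other PLAGL1 windows held 1, 4, 4 and 5 cores and 1 to 21 CpG, and 2 of them held CGGAAG. The other GRB10 windows held 1 to 4 cores and 2 to 37 CpG, and the other MEST windows 0 to 2 cores and 11 to 20 CpG. Of 35116 upstream windows of the same length 92.7% held GGAA on at least 1 strand, with a median of 3 matches and a median of 11 CpG. The core counts of the printed windows were thus below the median for cores, while the CpG counts of 3 of the 4, which were picked for CpG, were above theirs. CGGAAG, a longer ETS match that contains the core, was present in 1 copy in the first MEST window and in the GRB10 window, and in 16.5% of all windows. The kappa-B consensus, the site bound by NF-kB, was present in 1 copy in the second MEST window and in the GRB10 window, and in 9.96% of all windows; both strands were read for each motif. These matches describe letters only. PHLDA2, PEG10 and CDKN1C had no window in the table used.

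As a check of the labels, ETV6 (8.87 ± 0.26 on the log2 scale in control cells, SD, n = 3) fell to 22.6% of control with ETV6 siRNA and 35.1% with double siRNA. NFKB1 fell from 7.32 ± 0.15 to 60.3% with NFKB1 siRNA (6.59 ± 0.47, limma adjusted p = 0.00691) and 58.8% with double siRNA. With the other target's siRNA, NFKB1 was at 141% of control in the ETV6 siRNA group, all 3 samples higher but not called (adjusted p = 0.104). ETV6 was at 88.6% with NFKB1 siRNA (adjusted p = 0.206), while its second, dimmer probe set was higher there (0.40, adjusted p = 0.0122 as a single probe set). Of the glioma and astrocyte markers listed, GFAP (13.51), VIM (14.49) and SOX2 (12.74) had high levels in control cells. Of 12 markers of other cell types 2 had a probe set, KRT18 at 7.90 and the neuronal tubulin TUBB3 at 12.81. These levels alone thus do not name the cell type. The double siRNA arrays stood apart: their poly-A spike-in probe sets averaged 7.97 to 8.05 against 8.37 to 9.35 on the other arrays, and the 3′ probe set of ACTB exceeded its 5′ probe set by 2.05 to 2.16 against 1.52 to 1.91. Their medians over all probe sets were higher, 8.34 to 8.38 against 8.08 to 8.27 on the other arrays. The median difference over the 7760 genes tested had the other sign. With double siRNA it lay 0.13 below control on the log2 scale (-0.130), and was -0.238 and -0.186 after shifting arrays to the same median and after quantile normalization. Differences of the members relative to that median are therefore given for double siRNA. The median gene was also lower by 0.15 against ETV6 siRNA (-0.154), by 0.16 against NFKB1 siRNA (-0.164) and by 0.18 in the interaction (-0.180), the difference with both siRNAs minus the sum of the separate ones. In bulk RNA, fewer cells of a type and less RNA per cell cannot be told apart.

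Of the 6 members MEST differed most from control with ETV6 siRNA and with double siRNA, and it lay at control level with NFKB1 siRNA. On the log2 scale of the array its level was 9.77, 9.63 and 9.37 in the control samples and 8.52, 8.62 and 8.42 with ETV6 siRNA. It was 9.63, 9.67 and 9.51 with NFKB1 siRNA and 7.79, 7.91 and 7.85 with double siRNA. All 3 ETV6 siRNA samples thus lay below all control samples, all 3 double siRNA samples lay below all ETV6 siRNA samples, and the NFKB1 siRNA samples lay within the control range. The first was the case for 12.7% of genes and the second for 53.4%.

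The mean MEST level was 9.59 ± 0.20 (SD, n = 3) in control cells, 8.52 ± 0.10 with ETV6 siRNA, 9.60 ± 0.08 with NFKB1 siRNA and 7.85 ± 0.06 with double siRNA. ETV6 siRNA left 47.7% of the control level, a log2 difference of -1.07 (SE 0.09). NFKB1 siRNA left 101% (0.01, SE 0.09), and this small difference took either sign when single arrays were left out (-0.10 to 0.10). Double siRNA left 29.9%, a log2 difference of -1.74 (SE 0.09), or -1.61 relative to the median gene. It was the lowest difference of all 7760 genes in that comparison and the 13th lowest with ETV6 siRNA. Falls of over 1.5-fold were found in 1.28% of genes with ETV6 siRNA and in 13.9% with double siRNA.

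In terms of the position within an array, MEST lay at the 73.9 percentile of probe sets in control cells and at the 39.9 percentile with double siRNA. Against ETV6 siRNA alone, double siRNA was lower by a log2 difference of -0.67 (SE 0.09; -0.52 relative to the median gene), which left 62.8% of that level, with all 3 samples lower as for 53.4% of genes. MEST was thus lower in both groups that received ETV6 siRNA, and lowest in the group that received both siRNAs, where ETV6 itself was at 35.1% of control.

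**Figure D1:**
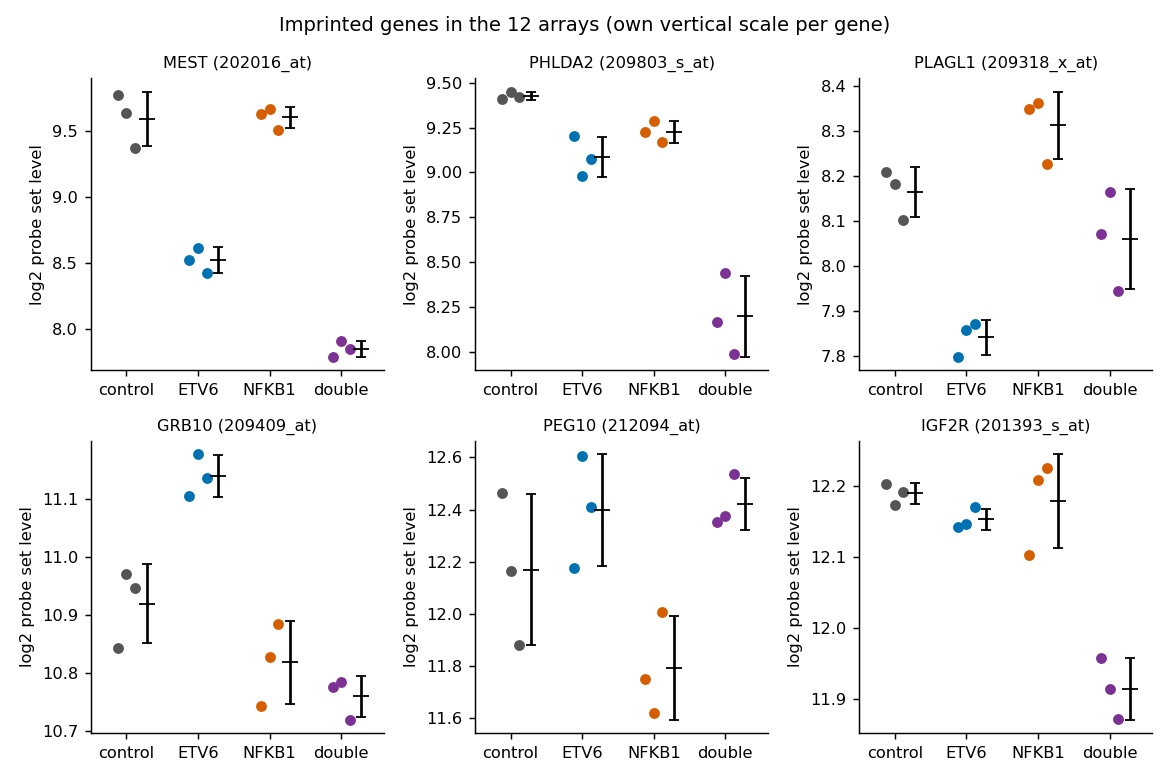
Log2 level of the brightest probe set of each of the 6 genes in the 12 samples, with 1 point per array and, beside them, the group mean with bars of 1 SD (n = 3); axes of the panels differ, since levels of different probe sets cannot be compared. MEST steps down from 9.59 in control cells to 8.52 with ETV6 siRNA and 7.85 with double siRNA, and stays at 9.60 with NFKB1 siRNA.

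PHLDA2 had a different profile. Its log2 levels were 9.41, 9.45 and 9.42 in control cells, 9.20, 8.98 and 9.07 with ETV6 siRNA, and 9.23, 9.28 and 9.17 with NFKB1 siRNA. With double siRNA they were 8.16, 8.44 and 7.99. Every sample of the 3 knock-down groups lay below every control sample, and the ETV6 and NFKB1 siRNA samples overlapped each other.

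ETV6 siRNA left 79.0% of the control PHLDA2 level (log2 difference -0.34, SE 0.10), and NFKB1 siRNA left 87.0% (-0.20, SE 0.10). Double siRNA left 42.6% (-1.23, SE 0.10, and -1.10 relative to the median gene), the 7th lowest difference of the genes tested. All 3 samples below all control samples was the case for 12.7% of genes with ETV6 siRNA, 27.9% with NFKB1 siRNA and 50.8% with double siRNA. The difference with both siRNAs exceeded the sum of the separate ones by -0.69 (SE 0.14) for PHLDA2 and by -0.68 (SE 0.13) for MEST, or by -0.51 and -0.50 relative to the median gene. Among all genes these differences lay at the 19.2 and 19.9 percentiles. These values were among those that put both genes on the list.

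Of the 4 members for which the rule names no measured value, PLAGL1 fell and GRB10 rose with ETV6 siRNA, while PEG10 and IGF2R did not pass the test. Among all genes 10.7% were called in that comparison at an adjusted p under 0.05, 4.38% as higher and 6.28% as lower. The share of all genes called depended on single arrays, since 436 were called without ETV6 siRNA replicate 1 and 469 without replicate 3, against 827.

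PLAGL1 (ZAC1) encodes a zinc finger factor, read from the paternal allele, that can halt the cell cycle. Its log2 levels were 8.21, 8.18 and 8.10 in control cells and 7.80, 7.86 and 7.87 with ETV6 siRNA. They were 8.35, 8.36 and 8.23 with NFKB1 siRNA and 8.07, 8.16 and 7.94 with double siRNA. The ETV6 siRNA samples were below all control and NFKB1 siRNA samples, and the NFKB1 siRNA samples were above all control samples. The double siRNA samples overlapped the control range. For 12.7% of genes all 3 ETV6 siRNA samples lay below control, and for 22.6% below NFKB1 siRNA. For 19.9% all 3 NFKB1 siRNA samples exceeded control. By limma PLAGL1 with double siRNA was above ETV6 siRNA (0.22, adjusted p = 0.00653). It was below NFKB1 siRNA (-0.25, adjusted p = 0.00235; -0.09 relative to the median gene). Among all genes 34.9% and 51.4% were called in these directions. Against NFKB1 siRNA the dimmer PLAGL1 probe sets differed by -0.07 and -0.24 (adjusted p = 0.452 and 0.00257 as single probe sets).

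ETV6 siRNA left 80.0% of the control PLAGL1 level, a 1.25-fold fall (log2 difference -0.32, SE 0.06, limma adjusted p = 0.00799, n = 3). The call held in 22 of 22 alternative settings, with adjusted p between 0.000772 and 0.0418. All 3 PLAGL1 probe sets had every ETV6 siRNA sample below every control sample, with log2 differences of -0.32, -0.29 and -0.16. On the brightest probe set alone this was so for 12.7% of genes. Tested as single probe sets, of which 6.35% were called, 1 of the 3 passed (adjusted p = 0.0182, 0.067 and 0.149). The dimmest of them lay at the 15.4 percentile of the control arrays.

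With NFKB1 siRNA the PLAGL1 difference had the opposite sign and did not pass the test (0.15, SE 0.06, adjusted p = 0.0795), in a comparison that called 40.6% of genes. It passed in 5 of 22 alternatives (0.16 to 0.24, adjusted p = 0.00984 to 0.0429), among them without NFKB1 siRNA replicate 3 (0.19, adjusted p = 0.0429) and after shifting arrays to the same median (0.24, adjusted p = 0.0105). The dimmest probe set passed in its own test (0.29, adjusted p = 0.00339), as did 34.9% of probe sets. Set directly against each other, ETV6 siRNA lay below NFKB1 siRNA by a log2 difference of -0.47 (SE 0.06, adjusted p = 0.000257), and all 3 probe sets passed, in a comparison that called 13.1% of genes as lower and had all 3 samples lower for 22.6%. PLAGL1 was 81st from the lowest of 7760 genes there, and the call held in 22 of 22 alternatives.

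With double siRNA PLAGL1 was at 93.0% of control (-0.10, SE 0.06, adjusted p = 0.143), where 80.9% of all genes were called, and slightly above the median gene (0.03 relative to it). The dimmer PLAGL1 probe sets had the opposite sign and did not pass (0.07 and 0.05, adjusted p = 0.465 and 0.413 as single probe sets). Relative to the median of all single probe sets, the brightest lay at -0.06 and the dimmer ones at 0.11 and 0.09. PLAGL1 passed in 4 of 22 alternatives (adjusted p = 0.00853 to 0.0467), among them without double siRNA replicate 2 (-0.16, adjusted p = 0.0467) and after shifting arrays to the same median (-0.21, adjusted p = 0.00853). It was higher than with ETV6 siRNA alone (0.22, SE 0.06, adjusted p = 0.00653; 0.37 relative to the median gene), as were 34.9% of genes, a call lost after shifting to the same median (0.10, adjusted p = 0.162) and after quantile normalization (0.12, adjusted p = 0.0987). The interaction, double minus both single knock-downs plus control, was 0.07 (SE 0.09, adjusted p = 0.475), or 0.25 relative to the median gene.

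GRB10 encodes an adaptor that binds the insulin and IGF1 receptors and dampens their signal. Its brightest probe set read 10.84, 10.97 and 10.95 in control cells, 11.10, 11.18 and 11.14 with ETV6 siRNA, 10.74, 10.83 and 10.88 with NFKB1 siRNA, and 10.78, 10.79 and 10.72 with double siRNA. All ETV6 siRNA samples were above, and all double siRNA samples below, the control samples, as for 11.8% and 50.8% of genes. The sign of the difference from control was thus opposite in these groups. What lay behind this was not tested.

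The GRB10 rise with ETV6 siRNA was 1.16-fold (log2 difference 0.22, SE 0.05, adjusted p = 0.0212), and all 3 probe sets lay higher in every ETV6 siRNA sample (0.22, 0.30 and 0.26). On the brightest probe set alone, 11.8% of genes did so. The rise lost its call in 6 of 22 alternatives, with differences of 0.18 to 0.23: without control siRNA replicate 1 (adjusted p = 0.0565), without ETV6 siRNA replicate 2 (0.0719) or 3 (0.0677), without control replicate 3 and ETV6 replicate 2 together (0.0609), after shifting to the same median (0.053) and in a fit of only the groups compared (0.104). With double siRNA GRB10 fell to 89.6% of control (-0.16, SE 0.05, adjusted p = 0.015), or by -0.03 relative to the median gene. That call was lost without control siRNA replicate 2 (-0.13, adjusted p = 0.0596) or double siRNA replicate 3 (-0.14, adjusted p = 0.0579). Relative to the median of all single probe sets, the 3 GRB10 probe sets lay at -0.12, -0.17 and -0.20 with double siRNA.

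Double siRNA lay below ETV6 siRNA alone for GRB10 by a log2 difference of -0.38 (SE 0.05, adjusted p = 3.92e-05; -0.22 relative to the median gene), and on all 3 probe sets (82.7% of probe sets were called), where 86.2% of all genes were called, 51.2% as lower. The interaction was -0.28 (SE 0.07, adjusted p = 0.0042), and -0.59 and -0.63 on the other 2 probe sets (83.3% of probe sets were called). It was called for 86.3% of all genes, and relative to the median gene it was -0.10. Relative to the median of all single probe sets it was -0.23, -0.54 and -0.58 on the 3 probe sets. With NFKB1 siRNA alone the probe sets disagreed in sign (-0.10, 0.08 and 0.13) and none passed. They also differed for double against NFKB1 siRNA, where 51.4% of genes were called lower: the brightest did not pass (-0.06, adjusted p = 0.311; 0.11 relative to the median gene), while the other 2 passed as single probe sets (-0.29, adjusted p = 0.000801, and -0.38, adjusted p = 0.000475).

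**Figure D2:**
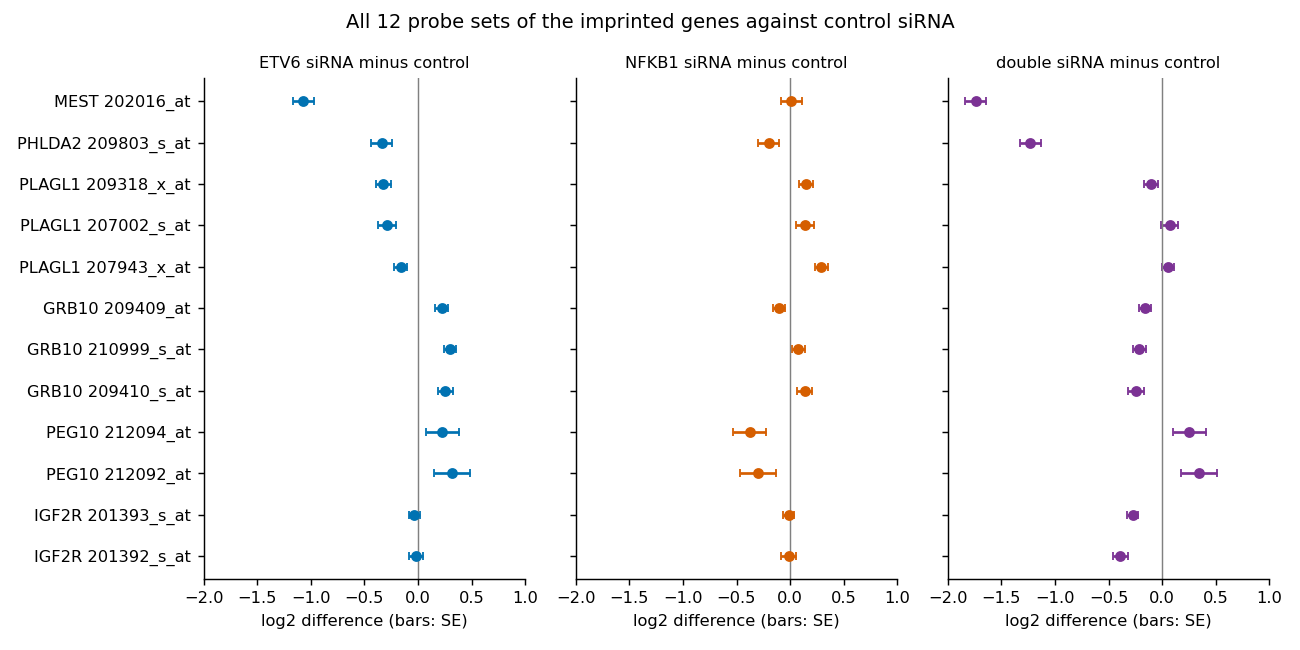
Log2 difference from control siRNA of each of the 12 probe sets of the members, with bars of 1 standard error, for ETV6, NFKB1 and double siRNA. The 3 PLAGL1 probe sets lie below 0 and the 3 GRB10 probe sets above 0 with ETV6 siRNA, and both IGF2R probe sets leave 0 with double siRNA (-0.27 and -0.39).

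IGF2R encodes the mannose 6-phosphate receptor, which takes lysosomal enzymes and IGF2 into the cell; in people it is often read from both alleles. Its brightest probe set read 12.20, 12.17 and 12.19 in control cells, 12.14, 12.15 and 12.17 with ETV6 siRNA, 12.10, 12.21 and 12.22 with NFKB1 siRNA, and 11.96, 11.91 and 11.87 with double siRNA. The single knock-downs differed from control by -0.04 (SE 0.05, adjusted p = 0.721) and -0.01 (SE 0.05, adjusted p = 0.865), while every double siRNA sample was below all control and ETV6 siRNA samples. All 3 double siRNA samples lay below control for 50.8% of genes and below ETV6 siRNA for 53.4%. Against NFKB1 siRNA IGF2R was lower with double siRNA by limma (-0.26, adjusted p = 0.000173; -0.10 relative to the median gene), as called for 51.4% of genes.

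With double siRNA IGF2R fell to 82.7% of control (-0.27, SE 0.05, adjusted p = 0.000185; -0.14 relative to the median gene), and its second probe set fell by 0.39 (adjusted p = 0.000341; 76.4% of probe sets were called). The call held in 22 of 22 alternatives. The interaction was -0.23 (SE 0.07, adjusted p = 0.00631), or -0.05 relative to the median gene. Relative to the median of all single probe sets, the IGF2R probe sets lay at -0.23 and -0.35 with double siRNA against control. In the interaction they lay at -0.18 and -0.31. A fall was called for 49% of all genes in the comparison of double siRNA with control.

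PEG10 derives from an ancient retrotransposon and is read from the paternal allele; it is needed to build the placenta. Its log2 levels were 12.46, 12.16 and 11.88 in control cells, 12.18, 12.61 and 12.41 with ETV6 siRNA, 11.75, 11.62 and 12.01 with NFKB1 siRNA, and 12.35, 12.37 and 12.53 with double siRNA. The control samples spread from 11.88 to 12.46, and every knock-down group overlapped them.

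PEG10 did not pass the test against control with ETV6 siRNA (0.23, SE 0.15, adjusted p = 0.41), NFKB1 siRNA (-0.38, SE 0.15, adjusted p = 0.0636) or double siRNA (0.25, SE 0.15, adjusted p = 0.14; 0.38 relative to the median gene). Control replicates weighed on these values. With NFKB1 siRNA PEG10 passed in 5 of 22 alternatives (-0.52 to -0.38), among them without control siRNA replicate 3 (-0.52, adjusted p = 0.0123) or NFKB1 siRNA replicate 3 (-0.48, adjusted p = 0.0355), and with double siRNA it passed in 2, without control siRNA replicate 1 (0.40, adjusted p = 0.0239) and with array weights (0.23, adjusted p = 0.0126). Its interaction of 0.40 (SE 0.21, adjusted p = 0.0944; 0.58 relative to the median gene) passed in 5 of 21 alternatives, among them without control siRNA replicate 3 (0.54, adjusted p = 0.0158), ETV6 siRNA replicate 2 (0.50, adjusted p = 0.0462) or NFKB1 siRNA replicate 3 (0.51, adjusted p = 0.0435).

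The comparisons among knock-downs do not use the control means. ETV6 siRNA exceeded NFKB1 siRNA 1.52-fold (0.60, SE 0.15, adjusted p = 0.00981) and double siRNA exceeded NFKB1 siRNA 1.54-fold (0.63, SE 0.15, adjusted p = 0.00175; 0.79 relative to the median gene). Both probe sets passed in both comparisons, with every sample above every NFKB1 siRNA sample. These comparisons called 34.9% and 89.1% of all genes, 21.8% and 37.7% as higher, and had all 3 samples above for 30.2% and 38.4%. As single probe sets 26.8% and 87.3% were called. Double and ETV6 siRNA differed by 0.02 (SE 0.15, adjusted p = 0.886; 0.18 relative to the median gene).

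**Figure D3:**
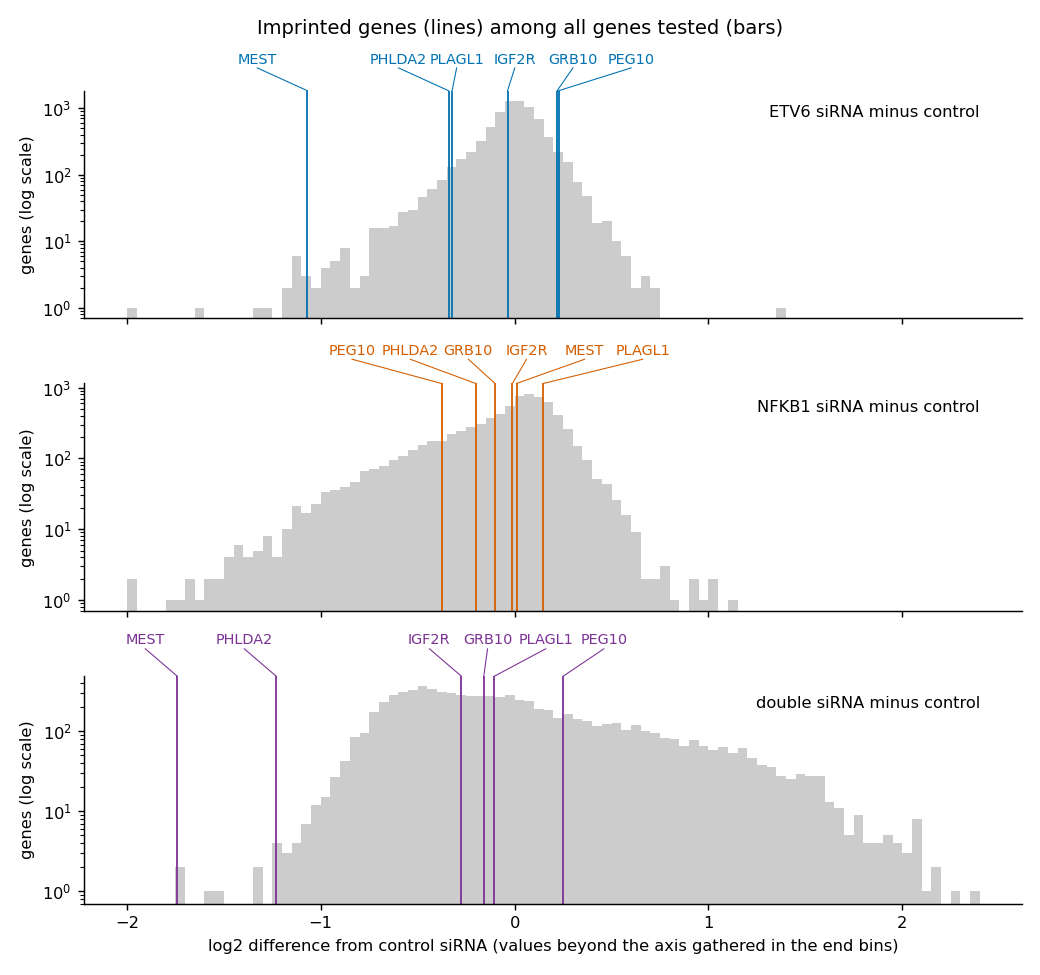
Log2 difference from control siRNA of the 6 members (lines, named above each panel) among all 7760 genes tested (grey bars, number of genes on a log scale); values beyond the axis are gathered in the end bins. MEST (-1.07) is far out on the left with ETV6 siRNA and near 0 with NFKB1 siRNA, and MEST (-1.74) and PHLDA2 (-1.23) are at the left edge with double siRNA.

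Genes with levels most like those of MEST over the 12 arrays were TUBB6 (Pearson r = 0.992), GSTO1 (0.985), CTDSPL (0.977), CDK2 (0.976) and UBE2S (0.975), and the most opposite were BCL10 (-0.969), SRP14 (-0.961) and CHIC2 (-0.960). For PHLDA2 the closest were ITGB5 (0.987), MCM2 (0.985), ITPA (0.985), LHX2 (0.984) and DTYMK (0.983), and the most opposite ZNF665 (-0.977), GINM1 (-0.973) and GET1 (-0.972). MEST and PHLDA2 correlated at 0.876, PHLDA2 and IGF2R at 0.932, and MEST and GRB10 at 0.012. The arrays of a group share their treatment and the double siRNA arrays stand apart, so these values describe the group profiles and carry no test.

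The genes next to MEST and PHLDA2 on their chromosomes lay closer to control than these members with ETV6 and double siRNA, but not all of them with NFKB1 siRNA. With ETV6 siRNA the direct neighbours of MEST, CEP41 on one side and COPG2 on the other, differed from control by 0.08 (SE 0.05) and 0.03 (SE 0.05), and with double siRNA by -0.12 and -0.20. COPG2, itself reported as imprinted in some tissues, passed the test with double siRNA (adjusted p = 0.0045). CEP41 did not (adjusted p = 0.0509), but it passed in 9 of 22 alternatives (adjusted p = 0.000137 to 0.0477). With NFKB1 siRNA, where MEST differed by 0.01, CEP41 fell by 0.18 (adjusted p = 0.0218, a call lost in 6 of 22 alternatives) and COPG2 differed by -0.09 (adjusted p = 0.205). The neighbours of PHLDA2, SLC67A1 (older name SLC22A18) and NAP1L4, differed by -0.13 and -0.20 with ETV6 siRNA, neither called. SLC67A1, a membrane transporter read from the maternal allele like PHLDA2, fell by 0.72 with double siRNA (SE 0.07, adjusted p = 6.31e-06), and NAP1L4 differed by -0.12 (adjusted p = 0.0893). With NFKB1 siRNA, where PHLDA2 differed by -0.20, NAP1L4 fell by 0.27 (adjusted p = 0.005, called in 21 of 21 alternatives) and SLC67A1 differed by -0.01 (adjusted p = 0.926).

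SGCE, which shares a control region with PEG10 and encodes a sarcoglycan, was level with control in both single knock-downs (-0.02 and -0.03) and rose by 0.55 with double siRNA (SE 0.07, adjusted p = 1.98e-05). Of 24 tested protein-coding genes within 5 places of a member on either side, a window set after the data were seen, 1 rose and 3 fell with ETV6 siRNA by limma (2 and 5 at an unadjusted p under 0.05). Among all genes 10.7% were called there. The riser in the window was the collagen gene COL1A2 near PEG10 (0.22, adjusted p = 0.0295). FIGNL1 near GRB10 (-0.65, adjusted p = 0.0125) and PEX3 (-0.42, adjusted p = 0.0388) and UTRN (-0.26, adjusted p = 0.0496) near PLAGL1 fell. These calls were lost in 8 of 22, 2 of 21, 13 of 21 and 15 of 22 alternatives, in the order named. With NFKB1 siRNA 0 rose and 10 fell (1 and 10 unadjusted), and with double siRNA 9 rose and 11 fell, against 40.6% and 80.9% of all genes called. Their median log2 differences were -0.046, -0.074 and -0.135, against 0.002, 0.011 and -0.130 over all genes. In a hand-written list of 41 nearby genes, of which 15 were tested and 14 of those lay in this window, 0 rose and 1 fell with ETV6 siRNA (1 and 3 unadjusted).

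Other imprinted genes were taken from a list of 80, of which 25 had a probe set and 16 passed the filter on low levels. With ETV6 siRNA 1 rose and 0 fell by limma (4 and 1 at an unadjusted p under 0.05), where 10.7% of all genes were called. The riser BLCAP, a gene first found in bladder cancer that is imprinted in brain, was 9.83 ± 0.07 in control cells and 10.24 ± 0.06 with ETV6 siRNA (0.41, SE 0.05, adjusted p = 0.000834). With NFKB1 siRNA 2 rose and 5 fell, where 40.6% of all genes were called. BLCAP rose again (0.30, adjusted p = 0.000974), the zinc finger gene GLIS3 fell by 0.68 (adjusted p = 3.86e-05) and NAP1L5, a nucleosome assembly protein gene, fell by 0.49 (adjusted p = 0.000725). The other calls were TRAPPC9, RB1, UBE3A and INPP5F, each lost when at least 1 array was left out (highest adjusted p = 0.0728, 0.0568, 0.103 and 0.105). The count was 3 without NFKB1 siRNA replicate 2 and 4 without replicate 1.

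With double siRNA 5 of these 16 genes rose and 9 fell, where 80.9% of all genes were called and 49% as lower. UBE3A, the ubiquitin ligase gene of Angelman syndrome, rose from 9.79 ± 0.24 to 11.10 ± 0.02 (1.31, SE 0.11, adjusted p = 2.52e-06), and the retinoblastoma gene RB1 rose by 1.02 (SE 0.13, adjusted p = 2.09e-05). The largest fall was that of SLC67A1, followed by NAA60 (-0.61, adjusted p = 9.07e-06), an acetyltransferase gene. The list's median was -0.002, -0.025 and -0.167 in the 3 comparisons, against 0.002, 0.011 and -0.130 over all genes. MEST with -1.07 thus lay outside the range of the listed genes with ETV6 siRNA, as the plot of these genes shows, which is a description since MEST was picked for it.

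**Figure D4:**
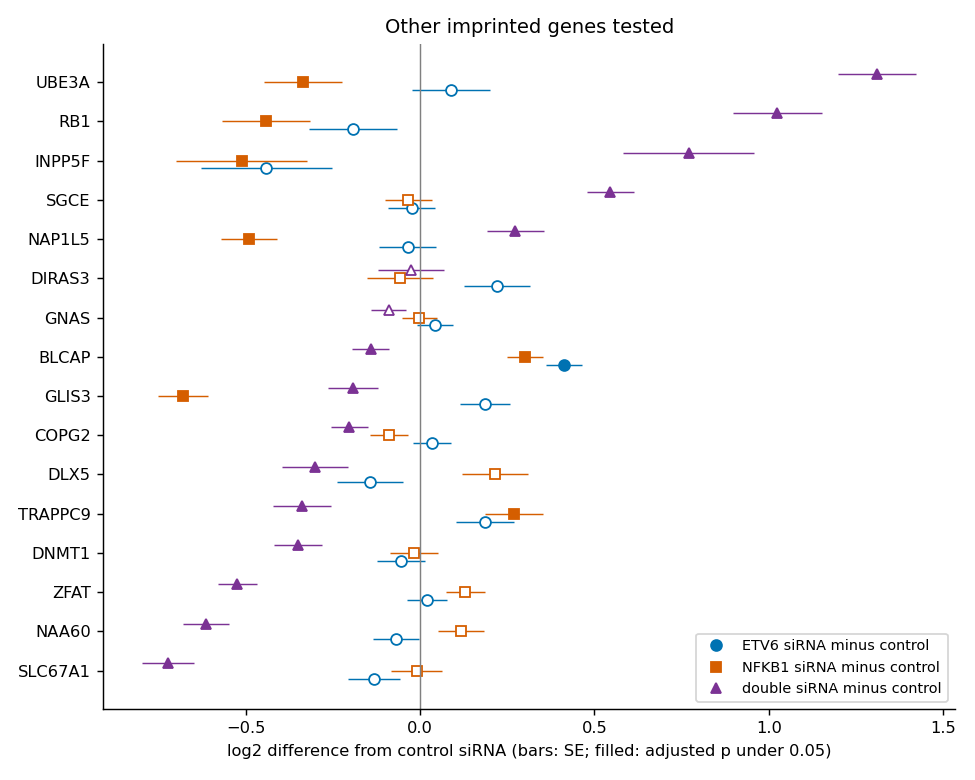
Log2 difference from control siRNA of the 16 other imprinted genes tested, for ETV6 (circles), NFKB1 (squares) and double siRNA (triangles), with bars of 1 standard error and filled symbols for an adjusted p under 0.05. The listed genes lie between -0.44 (INPP5F) and 0.41 (BLCAP) with ETV6 siRNA, and they spread from -0.72 (SLC67A1) to 1.31 (UBE3A) with double siRNA.

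GRB10 and IGF2R act in insulin and IGF signalling, and of 25 tested genes of that pathway 1 rose and 3 fell with ETV6 siRNA. Among all genes 10.7% were called there. IGFBP5, a secreted IGF binding protein, rose by 0.46 (SE 0.08, adjusted p = 0.00406). GRB2, the adaptor that links receptors to RAS, fell by 0.43 (SE 0.06, adjusted p = 0.0021), and IGF2BP3, which binds IGF2 mRNA, fell by 0.59 (SE 0.09, adjusted p = 0.00276; 0.0512 with only the groups compared). The PI3-kinase subunit gene PIK3R1 fell by 0.51 (adjusted p = 0.0365), a call lost with some arrays left out (up to 0.14). With NFKB1 siRNA, beside the 40.6% called among all genes, 4 rose and 8 fell, among them IGFBP3 (0.58, adjusted p = 5.91e-05) and again IGF2BP3 (-0.86, adjusted p = 4.04e-05). With double siRNA, beside the 80.9% called among all genes, 6 rose and 11 fell, including the kinase genes AKT1 (-0.84, adjusted p = 3.01e-05) and AKT2 (-0.69, adjusted p = 4.79e-06). The list's medians of 0.012, -0.006 and -0.118 were close to those of all genes.

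Of 3 tested relatives of PHLDA2, 0 passed with ETV6 siRNA by limma (0 at an unadjusted p under 0.05), where 10.7% of all genes were called. PHLDA1 differed by 0.03 and PHLDA3 by 0.11 (adjusted p = 0.847 and 0.407). With double siRNA 1 rose and 1 fell, where 80.9% of all genes were called. PHLDA3, a p53-induced inhibitor of AKT, fell by 0.52 (adjusted p = 5.07e-05). PHLDB2 rose (0.66 to 0.85 with single arrays left out). With NFKB1 siRNA 1 rose and 1 fell, where 40.6% of all genes were called. PHLDA1 rose (0.22 to 0.33 with single arrays left out) and PHLDB2 fell (-1.35 to -1.15). Of 7 tested genes related to PLAGL1 or, by retrotransposon origin, to PEG10, 1 rose and 0 fell with ETV6 siRNA by limma (3 and 0 at an unadjusted p under 0.05). Among all genes 10.7% were called there. The riser was RTL6 (0.27, adjusted p = 0.0189; 0.0791 and 0.0728, not called, without ETV6 siRNA replicate 1 or 3, and 0.138 with only the groups compared). With double siRNA 1 rose and 6 fell, where 80.9% of all genes were called. The list median was -0.335 there, against -0.130 over all genes. PLAGL2, a relative of PLAGL1, differed by 0.19 with ETV6 siRNA (adjusted p = 0.316) and fell by 0.43 with double siRNA (adjusted p = 0.00255). RTL8A, a retrotransposon-derived gene like PEG10, fell by 0.61 with double siRNA (adjusted p = 4.02e-05). Of 4 tested cell-cycle inhibitor genes listed with CDKN1C, 2 rose and 1 fell with double siRNA, where 80.9% of all genes were called. CDKN1B rose by 0.48 (adjusted p = 2.54e-05) and CDKN1A fell by 0.35 (adjusted p = 0.00573). The other riser was CDKN3 (0.38 to 0.53 with single arrays left out). In either single knock-down 0 of 4 passed, where 10.7% of all genes were called with ETV6 siRNA and 40.6% with NFKB1 siRNA. At an unadjusted p under 0.05 the counts were 0 with ETV6 siRNA and 1 with NFKB1 siRNA.

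Of 14 tested factors that keep or read imprints, 0 rose and 2 fell with ETV6 siRNA by limma (0 and 7 at an unadjusted p under 0.05). Among all genes 10.7% were called there. HELLS, a chromatin remodeller needed for DNA methylation, fell by 1.14 (SE 0.13, adjusted p = 0.00051), and SMCHD1 fell by 0.56 (adjusted p = 0.0388; up to 0.153 with an array left out). The maintenance methyltransferase DNMT1 differed by -0.06 (adjusted p = 0.713) and its partner UHRF1 by -0.06 (adjusted p = 0.62). With NFKB1 siRNA 1 rose and 9 fell, HELLS by 1.65 (adjusted p = 6.65e-06), where 40.6% of all genes were called. The list's medians were -0.112 with ETV6 siRNA, -0.206 with NFKB1 siRNA and -0.186 with double siRNA. Over all genes they were 0.002, 0.011 and -0.130. Whether any of the listed factors acts on the members was not tested. With double siRNA 4 rose and 7 fell, where 80.9% of all genes were called. SMCHD1 rose by 0.58 (adjusted p = 0.004), opposite to its sign with ETV6 siRNA, and the Polycomb subunit SUZ12 rose by 0.85 (adjusted p = 0.000247). TRIM28, the corepressor that guards imprints, fell by 0.92 (adjusted p = 0.000183), UHRF1 by 0.54 (adjusted p = 1.32e-05) and DNMT1 by 0.35 (adjusted p = 0.000548), and HELLS did not pass (-0.16, adjusted p = 0.268).

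Beside the falls of MEST, PHLDA2, GRB10 and IGF2R with double siRNA, both markers of other cell types with a probe set fell as well (KRT18 by 0.55, TUBB3 by 0.26). Of 8 tested glioma and astrocyte markers 1 rose and 3 fell, where 80.9% of all genes were called. NES (-1.16), GFAP (-0.54) and SLC1A3 (-0.28) fell and S100B rose (0.38, called in 21 of 21 alternatives), while VIM, SOX2, CD44 and FABP7 differed by 0.03, 0.10, -0.11 and -0.04 and did not pass. The spike-in and ACTB values given above moved with the same group. The part of either in these results was not tested.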

How the data were processed

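The authors deposited log2 probe set levels of 12 Affymetrix arrays of biotin-labelled cRNA, per the labels' protocols. Background correction, summarization, normalization and the choice of the 19520 probe sets are not given in the sources used here; array medians lay between 8.08 and 8.38. No pair of arrays was identical (0), and 0 value columns were left unused. GEO's platform table gave 1 gene for 17313 probe sets, several for 857 and none for 1293, beside 57 controls. Entrez identifiers of 17307 matched RefSeq (GRCh38.p14), and 0 symbols changed. The brightest probe set stood for a gene. Genes under the 25th percentile of means (log2 7.54) were left out except members and targets, leaving 7760; all 6 member genes were above it.

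A linear model with group means was fitted by limma 3.58.1 in R 4.3.3 (8 residual degrees of freedom). It gave 7 comparisons with two-sided tests and Benjamini-Hochberg adjustment over all genes, called under 0.05. An exact permutation test of 3 against 3 cannot go below 0.1. The fit was tested on simulated data. A second fit took all 17313 probe sets singly.

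Members and lists were chosen with earlier results of these data known. Named genes were the members, tested neighbours, up to 6 genes per list with the smallest adjusted p, and those most alike; relatives, targets and markers named for a comparison outside this rule were chosen after their values were seen. Alternatives were 2 scalings, 2 filters, the mean of probe sets, array weights, trend and robust variances, only the groups compared, a replicate block, each array left out and, added after seeing the data, control siRNA replicate 3 and ETV6 siRNA replicate 2 left out together. Same-numbered samples deviated together (r over 0.1) in 5 of 18 pairs, so the numbers were not used as a pairing. Of all pairs across groups, control siRNA replicate 3 and ETV6 siRNA replicate 2 had the highest r (0.636). Control siRNA replicate 1 and ETV6 siRNA replicate 2 had the lowest (-0.521). What these samples shared was not tested, and the fit takes all samples as independent.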

Additional observations from a re-analysis of the deposited data

Results flagged for a closer look

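For 2 members the effect of both siRNAs together differed from the sum of the separate effects by the test of that difference (limma, adjusted over all genes). GRB10 was lower by an interaction of -0.277 on the log2 scale (adjusted p = 0.0042), where it was higher with ETV6 siRNA alone. All 3 of its double siRNA samples lay below control, as for 50.8% of genes. IGF2R was lower by -0.227 (adjusted p = 0.00631), with both single knock-downs near control level. Both calls held in 21 of 21 alternatives, but 86.3% of all genes were called in this comparison, and relative to the median gene the values were -0.10 and -0.05. These last values depend on the probe set and on the median used. In the unfiltered fit of single probe sets (83.3% called), values relative to the median probe set were -0.23, -0.54 and -0.58 for GRB10. For IGF2R they were -0.18 and -0.31. Groups of 3 samples were not screened for outlying samples.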

How the results depend on the processing

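The deposited scaling is unknown and 3 arrays a group limit the precision. Without control siRNA replicate 3 and ETV6 siRNA replicate 2 together MEST with ETV6 siRNA was -1.23; with single arrays left out it ranged from -1.18 to -0.98, and with double siRNA from -1.85 to -1.65. PHLDA2 ranged from -0.40 to -0.29 and from -1.35 to -1.13. The PLAGL1 fall with ETV6 siRNA and the IGF2R fall with double siRNA held in all 22 alternatives. The replicate block, whose numbers do not pair the samples, changed no call of a member (GRB10 with ETV6 siRNA, adjusted p = 0.0221).

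Other imprinted genes called with ETV6 siRNA (1) numbered 2 after quantile normalization, 4 with array weights and 1 to 2 with an array left out. With NFKB1 siRNA (7) they numbered 4 under the filter at the 50th percentile, 3 in a fit of only the groups compared and 3 to 9 with an array left out. With double siRNA (14) they numbered 8 under that filter, which tests fewer genes. When probe sets were averaged within genes 4 differences from control of the genes followed, each called under at least 1 of the 2 rules, turned in sign: CD44 with NFKB1 siRNA (0.0925), and GNAS (0.13), IGFBP7 (0.29) and COL1A2 (0.36) with double siRNA. Members called under neither rule turned too, GRB10 with NFKB1 siRNA (0.0366) and PLAGL1 with double siRNA (0.00603). All genes called with ETV6 siRNA (827) numbered 2342 with array weights, 187 with only the groups compared and 436 to 959 with an array left out. With NFKB1 siRNA (3148) they numbered 1855 with only the groups compared. For ETV6 against NFKB1 siRNA (2709) they numbered 4333 with array weights and 1665 without ETV6 siRNA replicate 2. Under the filter at the 50th percentile all genes called numbered 4427, 4564 and 4418 for double against ETV6 siRNA (6686), double against NFKB1 siRNA (6911) and the interaction (6698), with fewer genes tested. Where the construction of an alternative does not show it, the cause was not tested.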
